A study of Mus musculus with 8 samples.

Results

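Marker genes of the visceral endoderm were followed through 8 expression arrays of laser-captured mouse yolk sac blood cells. The genes were 33 markers of this tissue listed by their known expression there, with earlier results of these data known. Each was represented by 1 probe set, a group of short probes for 1 transcript. That probe set carries the gene's symbol alone and had the highest mean over all 8 arrays. This gave 31 of the 33 genes, among 12393 genes represented on the array in the same way. Soat2 had no such probe set, and Trf, which encodes transferrin, was covered by a probe set that also carries the symbol Srprb.

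The arrays hold RNA of erythroid precursors cut by laser capture from 8 micrometre sections of yolk sacs of embryonic day 9.5. Replicates 11, 12, 13 and 14 are labelled KLF2-/-, that is, without the Krüppel-like transcription factor KLF2, and replicates 3, 5, 7 and 9 wild type FVB/N. They are called knockout and wild-type arrays by these labels. The labels give no strain for the KLF2 line, so genotype and strain cannot be told apart, and they disagree on whether its dams carried 1 or 2 mutant alleles. Each replicate pooled 2 to 4 yolk sacs from 2 litters. The knockout replicates came from 3600 to 4400 cells, 30 to 80 slides and 10 to 20 ng of RNA, and the wild-type replicates from 12 to 50 slides and 10 to 39 ng, with a labelling protocol that amplifies RNA in 2 cycles. Values are log2 expression values as deposited, on which a step of 1 is a 2-fold difference.

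The visceral endoderm is the epithelium that covers the outer face of the yolk sac, next to the mesoderm in which the blood islands lie. Before the liver takes over, it makes plasma proteins such as alpha-fetoprotein and transthyretin and packages lipid into lipoproteins. It also takes up nutrients from the maternal side through the endocytic receptors megalin and cubilin, and its genes are known to depend on HNF4A, GATA factors and FOXA2.

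Klf2 itself measured 5.38, 5.77, 7.15 and 5.89 on knockout arrays 11 to 14 and 5.18, 5.28, 4.97 and 5.70 on wild-type arrays 3, 5, 7 and 9. It was thus not lower in the arrays labelled knockout (difference 0.77, SE 0.35, limma adjusted p = 0.860), and the groups overlapped. Whether its probe set lies in the deleted part of the gene is stated nowhere in the labels, so every direction below is between labels. The samples are labelled erythroid, and the embryonic globin gene Hbb-bh1 measured between 14.01 and 14.17 on all 8 arrays. Gata1, the erythroid master regulator, measured between 7.76 and 9.77. Endoderm transcripts were measured beside them: Ttr lay between 12.86 and 13.37 on 7 arrays and at 10.60 on knockout array 14. The median of all probe sets lay at 5.08 or above on each array and at most at 5.20. Knockout array 14 stood apart for most of the genes described here, so the main comparisons are given with and without it. Wild-type arrays 3 and 5 also stood apart for some genes, as given below. In such bulk samples, fewer cells of a type and less RNA per cell cannot be told apart.

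The upstream sequences of 4 of the genes are shown because they lie before 3 genes that were lowest on knockout array 14 (Afp, Apoa1, Fgb) and before a neighbour of Afp that was highest there (Alb). Each is the 250 bases before the start of the RefSeq gene, 5′ to 3′ on the gene's strand, from the RefSeq table of build GRCm38.p6. Capitals mark matches, on either strand, to GTTAAT, an HNF1 half-site, or to TGTTTAC or TGTTTGC, forms of the FOXA motif. Afp is at chr5:90490464-90490713 on the plus strand, Alb at chr5:90460620-90460869 on the plus strand, Apoa1 at chr9:46228380-46228629 on the plus strand and Fgb at chr3:83049864-83050113 on the minus strand.
Afp: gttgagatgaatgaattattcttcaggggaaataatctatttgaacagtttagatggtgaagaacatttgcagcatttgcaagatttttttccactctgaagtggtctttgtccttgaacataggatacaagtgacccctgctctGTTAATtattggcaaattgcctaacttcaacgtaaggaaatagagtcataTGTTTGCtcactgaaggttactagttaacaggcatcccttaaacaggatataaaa
Alb: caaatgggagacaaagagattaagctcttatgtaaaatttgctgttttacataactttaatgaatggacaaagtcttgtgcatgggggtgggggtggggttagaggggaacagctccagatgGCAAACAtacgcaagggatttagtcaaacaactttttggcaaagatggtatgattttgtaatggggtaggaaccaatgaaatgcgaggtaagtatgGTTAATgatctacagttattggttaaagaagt
Apoa1: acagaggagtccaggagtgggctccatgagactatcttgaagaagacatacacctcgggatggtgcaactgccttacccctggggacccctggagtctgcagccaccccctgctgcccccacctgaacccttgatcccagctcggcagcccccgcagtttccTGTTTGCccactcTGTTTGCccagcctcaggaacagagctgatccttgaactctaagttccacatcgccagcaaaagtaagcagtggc
Fgb: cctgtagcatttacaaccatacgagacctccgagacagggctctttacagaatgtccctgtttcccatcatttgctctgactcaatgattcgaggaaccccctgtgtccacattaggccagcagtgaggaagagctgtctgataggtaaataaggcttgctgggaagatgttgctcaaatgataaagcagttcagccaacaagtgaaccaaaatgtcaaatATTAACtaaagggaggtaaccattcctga

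Of the 33 genes, 25 had entries in the promoter table, with 35 windows, since 7 genes had several starts. GTTAAT was found in 9 of the 35 windows (25.7%), against 6.43% of all 32851 windows in the table. The FOXA forms were found in 6 (17.1%, against 7.29%), in Afp, Alb, Apoa1, Apoa2, Apob and Rbp4. The GATA factor motif AGATAA was found in 3 (8.57%, against 9.99%) and AAAGTCC, the core of an HNF4 type of site, in 1 (2.86%, against 3.58%). These motifs share no overlap in the 4 sequences shown. The matches describe letters in these windows and say nothing of binding. Alb holds matches of both the HNF1 and the FOXA kind, as Afp does.

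Genes for secreted plasma proteins had some of the widest spreads on the arrays, and most of those spreads were smaller without 1 array. Fga, Fgb and Fgg encode the 3 chains of fibrinogen, the clotting precursor, and are neighbours on the chromosome. Fga measured 6.09, 7.75, 8.62 and 3.06 on knockout arrays 11 to 14 and 6.93, 7.39, 7.18 and 7.74 on wild-type arrays 3, 5, 7 and 9. Fgb measured 7.60, 8.57, 9.42 and 4.19 on the knockout arrays and 7.97, 8.40, 7.89 and 8.25 on the wild-type arrays. For Fgg the values were 8.64, 9.29, 11.14 and 5.37 in the knockout group and 9.01, 9.90, 9.13 and 9.14 in wild type. For each fibrinogen gene knockout array 14 was lowest and knockout array 13 highest, while the wild-type arrays lay inside the knockout range. Over 8 arrays Fga had an SD of 1.69, rank 13 of 12393 genes, and Fgg an SD of 1.64, rank 17.

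Ttr encodes transthyretin, the carrier of thyroid hormone and, with retinol binding protein, of vitamin A. It measured 12.86, 13.15, 13.37 and 10.60 on knockout arrays 11 to 14 and between 12.87 and 13.13 on the wild-type arrays. Without knockout array 14 the SD of Ttr was 0.18, smaller than with it (0.88). Rbp4, the retinol binding protein gene, measured 10.62, 11.90, 11.39 and 8.30 in the knockout group and 10.22, 10.75, 11.10 and 11.58 in wild type, so it too was lowest on knockout array 14.

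Afp encodes alpha-fetoprotein, the main serum protein of the early embryo. Its representing probe set measured 12.49, 12.34, 12.99 and 11.26 on knockout arrays 11 to 14 and 12.77, 13.02, 12.69 and 12.21 on wild-type arrays 3, 5, 7 and 9. The size of the gap at array 14 depended on the probe set. By this one, array 14 was 2.69-fold below the median of the other 7 arrays, and by a second Afp probe set, at 9.05 against 11.41 to 13.41, it was 7.64-fold below. Others gave 2.69-fold and 2.02-fold. The dimmest Afp probe set, with a mean of 4.85, did not show the gap, with array 14 at 4.99, 0.24 above that median. The probe sets of Ttr differed in the size of the gap, from 4.95-fold to 10.6-fold. Alb, which encodes albumin and is the neighbour of Afp, was at 4.83 to 5.57, close to the array medians, and was highest on knockout array 14 (5.57). That array was the highest for 22.0% of all genes. The probe set shared by Trf and Srprb measured 7.35, 8.55, 9.77 and 5.44 in the knockout group and 6.54, 7.07, 7.89 and 7.50 in wild type.

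**Figure D1:**
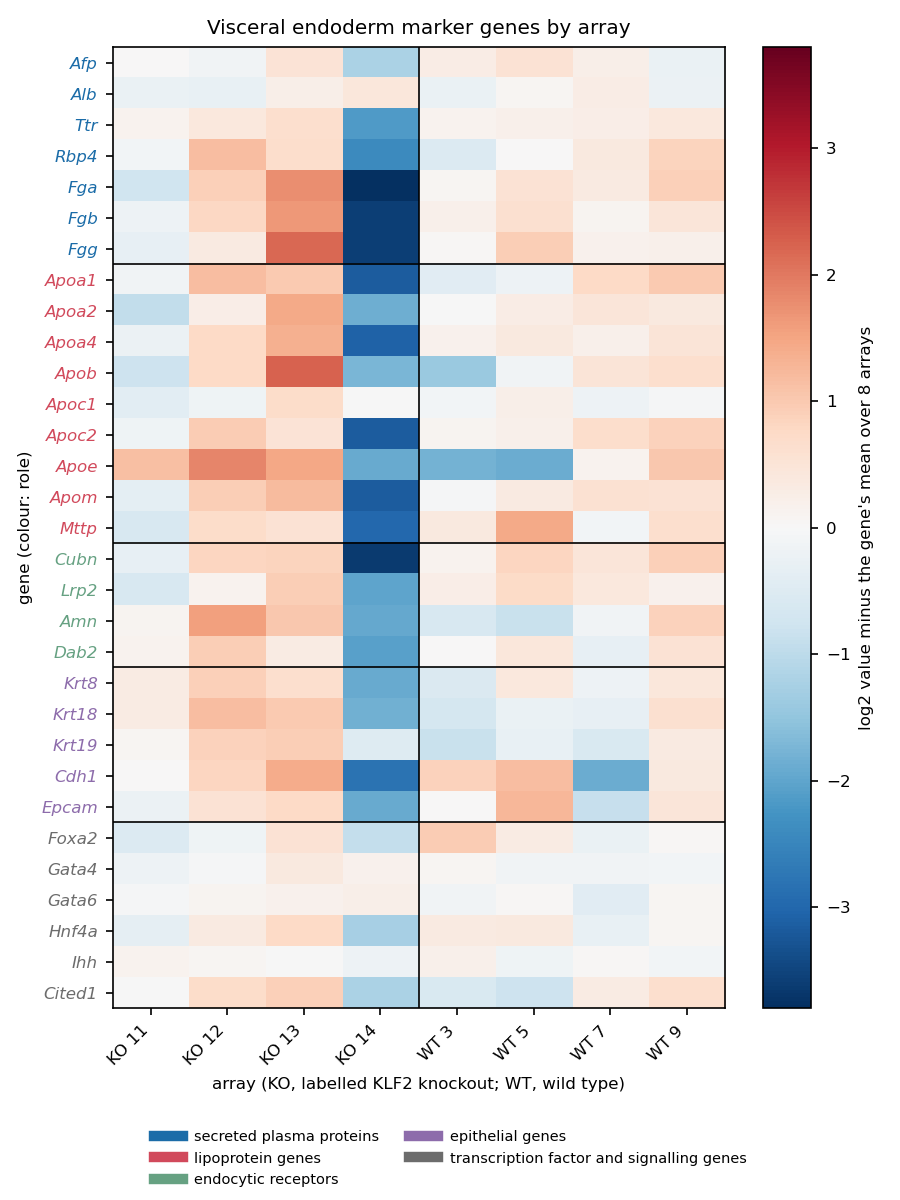
The 31 genes (rows, by role) on each array (columns) are coloured by the log2 value minus the gene's own mean over 8 arrays, with knockout arrays left and wild-type arrays right of the line. The column of knockout array 14 is blue for most genes, darkest for Fga, Fgb, Fgg and Cubn, and pale for Alb, Apoc1, Krt19, Gata4, Gata6 and Ihh.

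Lipoprotein genes followed a like course, with 8 of 9 lowest on knockout array 14. Apoa1, the main protein of high-density lipoprotein, measured 11.28, 12.59, 12.43 and 8.25 on knockout arrays 11 to 14 and 10.99, 11.24, 12.16 and 12.41 on wild-type arrays 3, 5, 7 and 9. Array 14 stood at -3.91 on the log2 scale relative to the median of the other arrays, and the rest of the knockout arrays lay within or just above the wild-type range. Apoa4, which lies near Apoa1 with 1 protein-coding gene between, was 10.9-fold below on array 14 (7.40). Apom, a carrier of sphingosine-1-phosphate, was at 6.98 on array 14 against 9.76 to 11.33 on the others, and Apoc2, the cofactor of lipoprotein lipase, at 5.78 against 8.78 to 9.90.

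Apob, the structural protein of very low density lipoprotein, varied on more arrays than one. It measured 8.40, 9.97, 11.44 and 7.45 in the knockout group and 7.78, 9.05, 9.68 and 9.83 in wild type, so wild-type array 3 was nearly as low as knockout array 14. Mttp encodes the microsomal transfer protein that loads lipid onto ApoB. It measured 6.10, 7.41, 7.27 and 3.75 on knockout arrays 11 to 14 and 7.10, 8.17, 6.63 and 7.35 on wild-type arrays 3, 5, 7 and 9, highest on wild-type array 5. Apoa2 measured 7.54 on knockout array 14 and 8.44 to 10.83 on the other arrays.

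Apoe, which encodes the ligand of the low density lipoprotein receptor and is made by many cell types, macrophages among them, was low on more arrays than 1. It measured 9.50, 10.19, 9.83 and 6.44 on knockout arrays 11 to 14 and 6.55, 6.46, 8.49 and 9.36 on wild-type arrays 3, 5, 7 and 9. Wild-type arrays 3 and 5 were as low as knockout array 14, which did not hold for Apoa1, Apoc2 or Apom. These were also the 3 lowest arrays for Amn, Cited1 and Apoa1, although for Apoa1 the 2 wild-type arrays, at 10.99 and 11.24, lay far above array 14 (8.25). Its SD without knockout array 14 was 1.54, almost the 1.62 over all arrays. Apoc1, the neighbour of Apoe, was at 4.28 to 5.37, and its mean of 4.69 lay below the median of every array. Background was not measured, so whether Apoc1 followed Apoe cannot be read from so dim a probe set.

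The endocytic receptor genes were all lowest on knockout array 14. Cubn encodes cubilin, the receptor for intrinsic factor and apolipoprotein A-I. It measured 8.88, 10.02, 10.04 and 5.55 on knockout arrays 11 to 14 and between 9.33 and 10.09 on the wild-type arrays. On array 14 Cubn was 21.8-fold below the median of the other arrays, the widest such gap among all 12393 genes as represented. By a second Cubn probe set, at 4.90 on array 14 and 5.88 to 8.30 on the others, it was 5.86-fold below. Its partner amnionless, encoded by Amn, measured 8.71, 10.15, 9.62 and 6.67 in the knockout group and 7.99, 7.75, 8.46 and 9.49 in wild type. Amn was again lowest on array 14, but wild-type arrays 3, 5 and 7 were also below the rest of the knockout arrays. Lrp2, which encodes megalin, was at 4.37 on array 14 against 5.78 to 7.32, and the adaptor gene Dab2 at 7.93 against 9.68 to 10.93.

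Among the epithelial genes, the keratin genes and the adhesion genes differed in detail. Krt8 and Krt18, neighbouring genes whose products pair in simple epithelia, were at 9.41 and 7.94 on array 14, against 10.77 to 12.23 and 9.10 to 10.94 on the others. Krt19 was lowest on wild-type array 3. It measured 6.23, 7.04, 7.11 and 5.66 on knockout arrays 11 to 14 and 5.30, 5.89, 5.57 and 6.49 on wild-type arrays 3, 5, 7 and 9. Cdh1, which encodes E-cadherin, measured 6.67, 7.46, 8.08 and 3.86 in the knockout group and 7.55, 7.83, 4.79 and 7.03 in wild type. Cdh1 was therefore low on wild-type array 7 as well as on knockout array 14. Epcam, another epithelial adhesion gene, was at 5.25 on array 14 and 6.27 on wild-type array 7, against 6.93 to 8.42 on the other arrays.

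The transcription factor and signalling genes spread less than the genes of secreted proteins. Hnf4a, a nuclear receptor that activates apolipoprotein genes, measured 8.08, 8.73, 9.17 and 7.13 on knockout arrays 11 to 14 and 8.74, 8.78, 8.12 and 8.49 on wild-type arrays 3, 5, 7 and 9. It was 3.03-fold below the median of the other arrays on array 14. Its other 3 probe sets lay at means of 3.97 to 5.06 and did not share one course, and array 14 was lowest in 1 of them. Foxa2 was at 4.61 on array 14 and highest on wild-type array 3 (6.47). Cited1, a transcriptional coactivator, was at 4.77 on array 14 against 5.16 to 6.88. Gata4, Gata6 and Ihh (which encodes the Indian hedgehog ligand) stayed within narrow ranges. Gata4 was at 4.18 to 4.73, Gata6 at 5.12 to 5.78 and Ihh at 4.03 to 4.39, with Gata4 and Ihh below the median of every array. How far these values stand above background was not measured.

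**Figure D2:**
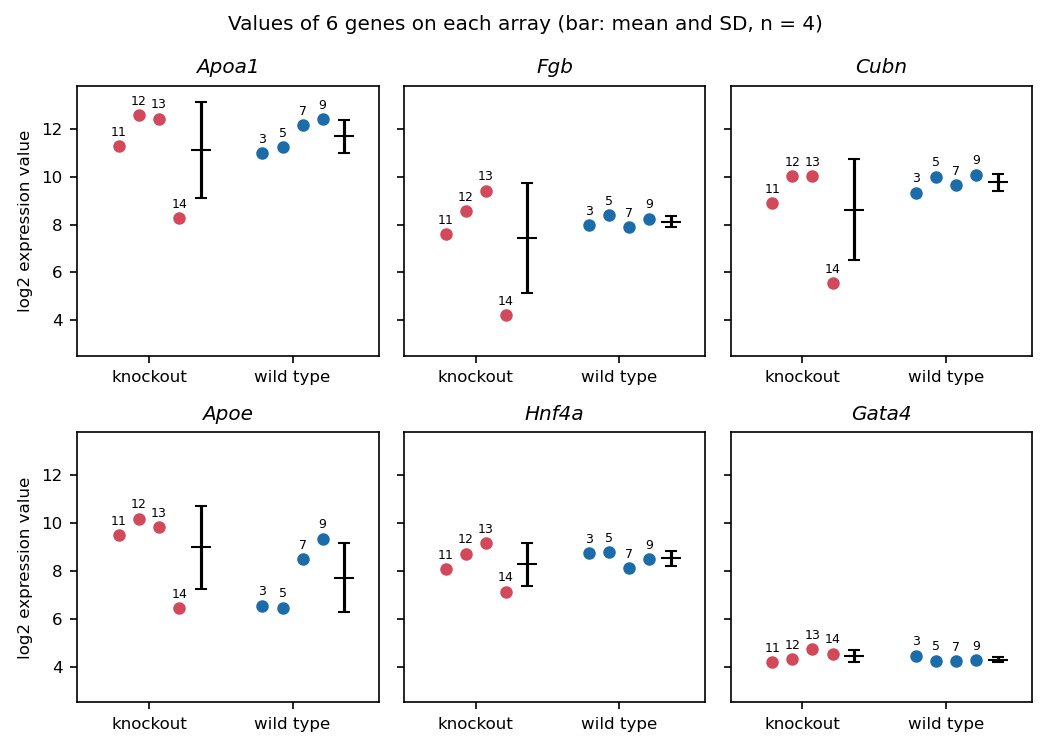
Log2 expression values of 6 genes are plotted for each array, numbered by replicate, in the knockout (red) and wild-type (blue) groups, with the group mean and SD (n = 4) as a black bar. Array 14 sits far below the others for Apoa1, Fgb and Cubn, is joined by wild-type arrays 3 and 5 for Apoe, is less far below for Hnf4a, and is not low for Gata4.

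The spread over arrays was summarised by the SD of each gene over all 8 arrays. For the 16 secreted plasma protein and lipoprotein genes the median SD was 1.33 (0.29 to 1.69), and for the 6 transcription factor and signalling genes it was 0.40 (0.13 to 0.78), beside 0.29 over all genes. The endocytic receptor genes had a median of 1.03 and the epithelial genes one of 0.98. An SD above 1 was found for 15 of the 31 genes, where 1.32% of all genes had one. These gene groups also differed in level, with a median mean value of 9.08 for secreted and lipoprotein genes and 5.54 for the transcription factor group. Spread was therefore also read against genes of like level, in deciles of the mean. The median secreted or lipoprotein gene had a larger SD than 99.3% of the genes in its decile, and the median transcription factor or signalling gene a larger SD than 54.8%. Within the latter group Cited1 (95.0%), Foxa2 (93.2%) and Hnf4a (85.7%) were above most genes of their level, and Gata4 (23.8%), Gata6 (19.4%) and Ihh (6.13%) were not. Of the secreted and lipoprotein genes, Alb (45.1%), Apoc1 (68.4%) and Afp (85.9%) stood lowest by this measure. No test was run between gene groups, since genes on the same arrays are not replicates.

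Much of this spread rested on knockout array 14. Without it the median SD was 0.59 for secreted and lipoprotein genes and 0.30 for the transcription factor group, beside 0.28 over all genes. Within the wild-type arrays alone the medians were 0.34 and 0.27, beside 0.23 over all genes. Without array 14 the median secreted or lipoprotein gene still had a larger SD than 88.6% of the genes in its decile. For the median transcription factor or signalling gene this share was 43.3%. The plot of SD by gene shows the SD with and without array 14 for each gene.

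**Figure D3:**
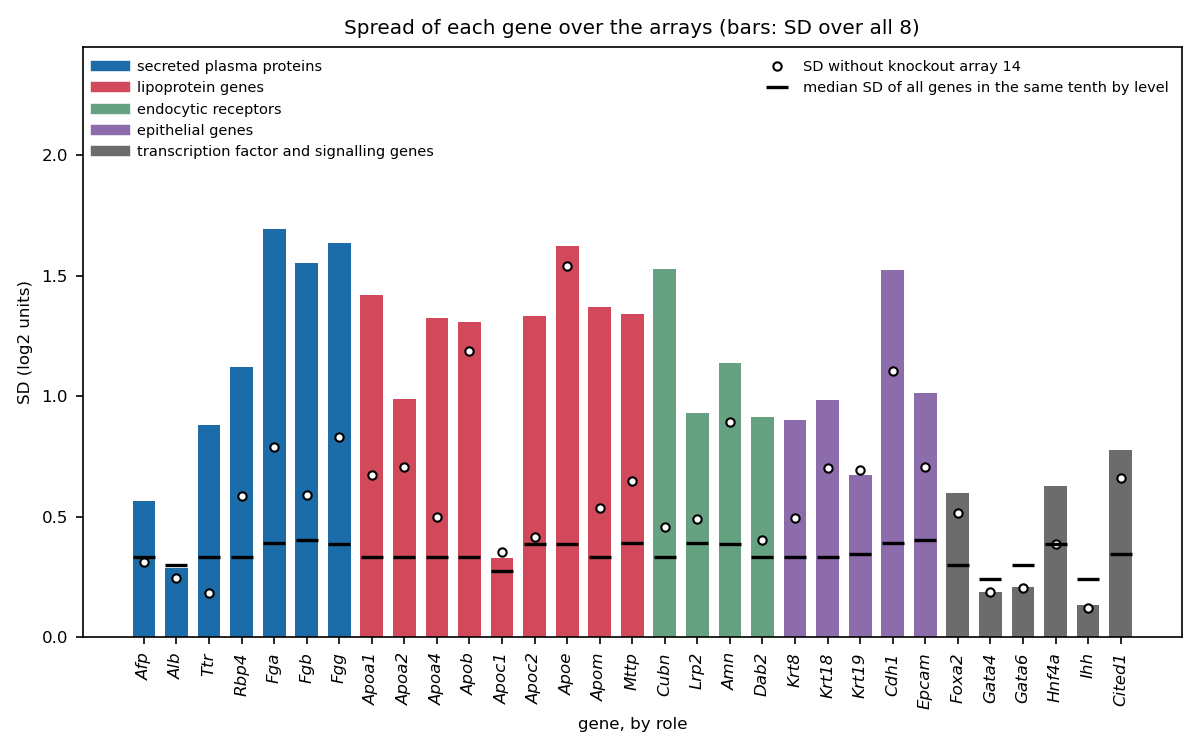
Bars give the SD in log2 units of each gene over all 8 arrays, coloured by role, open circles the SD without knockout array 14, and dashes the median SD of all genes in the same decile of mean level. Most bars stand above their dash, the circles of Ttr, Cubn and Fgb fall far below the bar, and those of Apoe, Apob and Krt19 stay near it.

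Array 14 was the lowest of the 8 arrays for 26 of the 31 genes, where it was lowest for 14.3% of all genes. The exceptions were Alb, Apoc1, Krt19, Gata4 and Gata6. It was at least 4-fold below the median of the other arrays for 21 of the 31 genes, against 0.799% of all genes. Those 99 genes thus included 21 of the markers, which are 21.2% of the 99 and 67.7% of the 31. The markers were chosen with earlier results of these data known, so these shares are no independent evidence. The median gap of the 31 genes on array 14 was -2.33, a 5.02-fold lower value, and that of all genes was 0.06. On array 14 Fga, Fgb, Mttp, Cdh1, Lrp2, Foxa2 and Cited1 lay at 3.06 to 4.77, below the median of every array. Background was not measured, so the gaps and SDs of these genes describe the measured values only. At the level of probe sets, 44 of the 54 that carry the symbol of 1 of these genes alone were lowest on array 14. The 10 that were not had means of at most 6.16.

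Among the other 7 arrays the order was less uniform. Knockout array 13 was highest for 15 of the 31 genes when all 8 arrays were ranked, where it was highest for 14.4% of all genes, and knockout array 12 for 8 (14.5% of all genes). Once array 14 was set aside, knockout array 11 was lowest for 15 of the 31 genes, against 16.4% of all genes. The low and the high arrays of these markers were thus mostly knockout arrays, and the median within-group SD was 1.38 in the knockout group and 0.37 in wild type, or 0.56 in the knockout group without array 14.

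The summed level of the 31 genes on the linear scale put array 14 at 0.206 of the median of the other arrays. The other knockout arrays were at 0.820 to 1.503 of that median and the wild-type arrays at 0.796 to 1.12. A second list of 35 visceral endoderm genes, of which 31 were represented, was also chosen with earlier results of these data known. It gave array 14 at 0.296 of the median, and the others at 0.706 to 1.45. In that list 17 of 31 genes were lowest on array 14. Slc2a2, the glucose transporter GLUT2, measured 8.24, 8.94, 8.72 and 4.56 on knockout arrays 11 to 14 and 9.16, 9.85, 8.67 and 9.04 on wild-type arrays 3, 5, 7 and 9. Its array 14 value lay below the median of every array, and since background was not measured, the 20.7-fold gap to the median of the other arrays describes the measured values only. Of the genes with the largest SD in that list, Ctsh, which encodes a lysosomal cysteine protease, was 14.8-fold below on array 14, the secreted phosphoprotein gene Spp2 12.3-fold and the scaffold gene Pdzk1 7.63-fold. Most of the list was less far below: its median gap was 1.93-fold, and 8 of 31 genes were at least 4-fold below. Apoh, Habp2 and Serpina6, chosen after their values were seen, were above the median of the other arrays on array 14, by 0.81, 0.42 and 0.42 on the log2 scale. By smallest limma p in that list, Slc2a2 was followed by Hpx, Ttpa and Cpn1. Relative to the same median these stood at 0.30, 0.06 and -0.42 on array 14. Their differences, knockout minus wild type, were 0.32, 0.29 and 0.45 (0.31, 0.36 and 0.66 without array 14), with no limma adjusted p under 0.05.

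Markers of other cell types moved on the same arrays to different degrees. Summed levels of 8 mesenchyme and mesothelium markers were at 0.392 of the median on array 14 and at 0.599 on wild-type array 3, against 0.823 to 1.52 on the rest. Array 14 was lowest for 6 of these 8 genes, against 14.3% of all genes, and 1 was at least 4-fold below (0.799% of all genes). Their median gap on array 14 was 2.54-fold, beside 17 of 31 lowest and 1.93-fold in the second endoderm list. A low array 14 was thus not particular to endoderm markers. The 8 endothelial markers had summed levels at 0.683 on array 14, within the 0.602 to 1.54 of the others. The 6 macrophage markers were at 0.936, within 0.870 to 2.16. Summed levels of 11 primitive erythroid markers were at 1.10 on array 14 and 0.904 to 1.07 on the others. That sum rests mostly on the globin genes Hbb-bh1, Hbb-y and Hba-x, at 14.09, 13.67 and 12.80 on array 14. Its narrow range hides wider ones of single genes, such as Tal1 at 7.28 to 10.05 and Alas2 at 7.54 to 10.58. As mean deviations on the log2 scale, erythroid markers were at 0.60 on array 14 and -0.90 on knockout array 13, where the endoderm markers stood at -1.91 and 0.93. On knockout arrays 11 and 12 the erythroid markers were at 0.415 and -0.081, and the endoderm markers at -0.167 and 0.616. On wild-type arrays 3, 5, 7 and 9 the erythroid markers were at -0.48, -0.395, 0.408 and 0.428. The endoderm markers there were at -0.12, 0.213, 0.014 and 0.424, so these lists were not opposed on every array. The 2 trophoblast and decidua markers with a probe set were Tpbpa, at 3.04 to 3.81, and Prl8a2. Prl8a2, a prolactin family gene, measured 10.87 and 11.61 on wild-type arrays 3 and 5 and 3.39 to 7.46 on the others. The part of these cell types in the endoderm values was not tested.

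**Figure D4:**
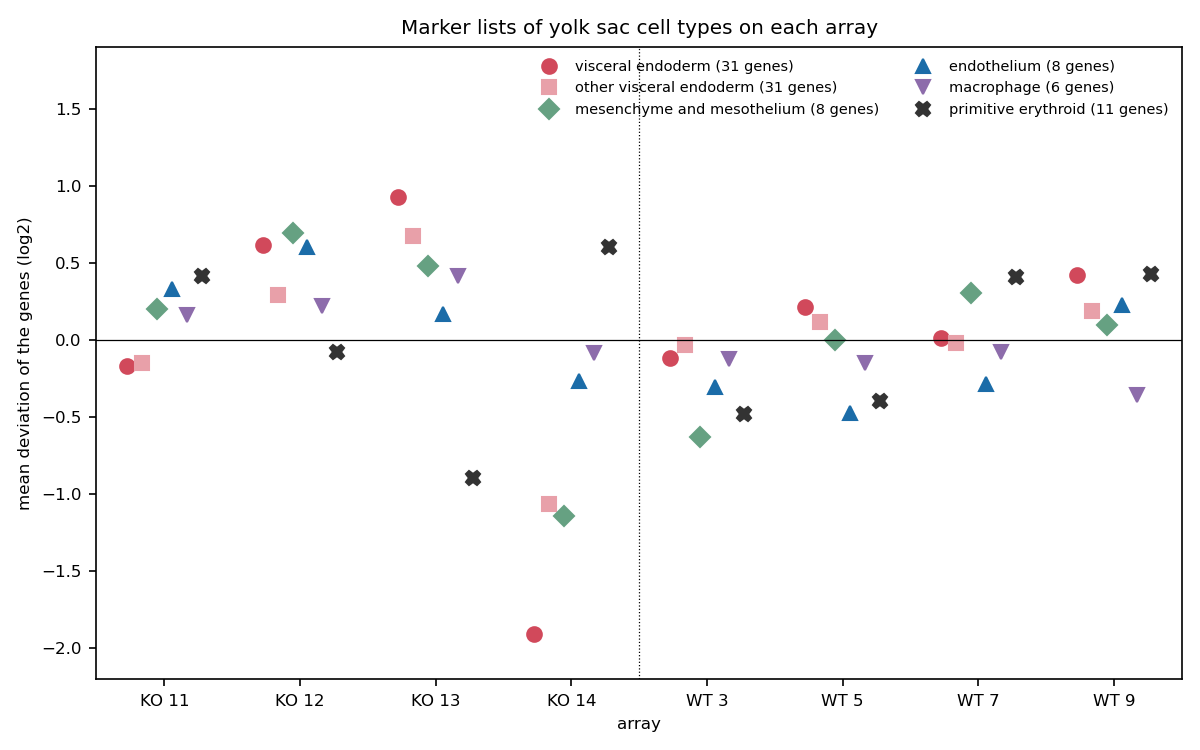
For each array, symbols give the mean over a marker list of each gene's log2 deviation from its mean over 8 arrays. The visceral endoderm symbols (circles) lie at -1.91 on knockout array 14 and 0.93 on knockout array 13, where the primitive erythroid crosses lie at 0.60 and -0.90. On wild-type array 9 the circle lies at 0.42 and the cross at 0.43, so these lists are not opposed on every array.

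The labelled groups were compared with limma on all 22626 probe sets. Of the 31 genes, 11 had a higher mean in the arrays labelled knockout and 20 a lower one, with a median difference of -0.36, beside 0.02 over all genes, of which 53.4% were higher. None of the 31 passed an adjusted p of 0.05 by limma, where 0% of all probe sets did, and 0 of the 31 had an unadjusted p under 0.05, where 5.4% of all probe sets did (3.48% with a higher knockout mean). The groups overlapped for every one of the 31 genes, where 2.99% of all probe sets did not overlap. By role, 1 of 7 secreted plasma protein genes, 3 of 9 lipoprotein genes, 1 of 4 receptor genes, 2 of 5 epithelial genes and 4 of 6 transcription factor and signalling genes had a higher knockout mean. Without knockout array 14 these counts by role were 5 of 7, 6 of 9, 2 of 4, 5 of 5 and 5 of 6, in the same order. Of the second list of endoderm genes, 12 of 31 had a higher knockout mean and 0 an unadjusted limma p under 0.05, with a median of -0.11. Without array 14, 22 of 31 of that list were higher, against 49.4% of all genes, with a median of 0.195. An unadjusted limma p under 0.05 was then reached by 3 of them, against 8.41% of all probe sets.

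The lowest p among the 31 genes was that of Krt19, at 6.51 ± 0.69 (SD, n = 4) in the knockout group and 5.81 ± 0.51 in wild type, a difference of 0.70 (SE 0.37, limma adjusted p = 0.860). Mttp was at 6.13 ± 1.69 (SD, n = 4) against 7.31 ± 0.64, a difference of -1.18 (SE 0.75, limma adjusted p = 0.860), and Cubn at 8.62 ± 2.12 against 9.76 ± 0.35, a difference of -1.14 (SE 0.89, limma adjusted p = 0.887). These sizes depended on the probe set. By a second probe set the difference was -0.24 (SE 0.52) for Mttp and -0.0023 (SE 0.72) for Cubn. Apoa1 differed by -0.56 (SE 0.88), Fga by -0.93 (SE 1.02) and Ttr by -0.49 (SE 0.54). For the 13 genes with several probe sets, the sign of the difference varied among probe sets in 4, which were Afp, Gata4, Hnf4a and Krt8.

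Without knockout array 14 the balance of signs turned. Of the 31 genes, 23 then had a higher knockout mean, against 49.4% of all genes, with a median difference of 0.19, and again 0 passed an adjusted p of 0.05 by limma, where 0% of all probe sets did. At an unadjusted p under 0.05 there were 3, all higher, where 8.41% of all probe sets reached it and 5.56% did so with a higher knockout mean. They were Krt18 at a difference of 0.99 (SE 0.32), Apoe at 2.13 (SE 0.70) and Krt19 at 0.98 (SE 0.32), each with an adjusted p of 0.578 by limma. Of the 31 genes Apoe was the single one whose groups no longer overlapped, where 8.12% of all probe sets did not. Apoe depended also on wild-type arrays 3 and 5: without both, and with array 14 kept, its difference was 0.06, against 1.27 over all arrays (SE 0.93, limma adjusted p = 0.877). No direction between the labelled groups is therefore read for these markers.

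**Figure D5:**
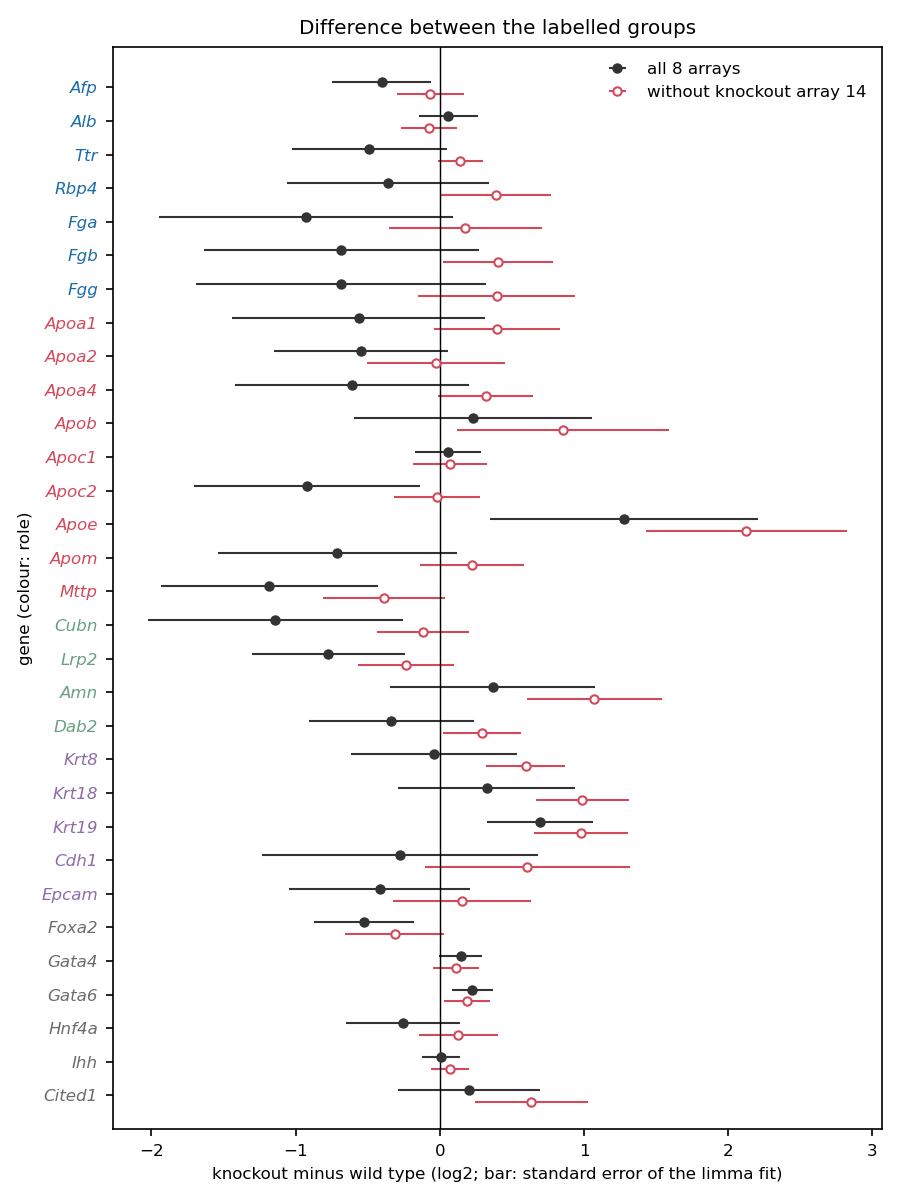
For each gene the difference of the labelled groups on the log2 scale, knockout minus wild type, is plotted with its limma standard error over all 8 arrays (black) and without knockout array 14 (red, open). Most black points lie left of 0 and most red points right of it, and Apoe is at 1.27 and 2.13.

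In the authors' deposited table of signed scores, Apoe was the 1 gene of the 31 with a q under 0.05, with a score of 5.02 and a q of 0.000295, where 0.952% of all represented genes had such a q (0.968% of all probe sets, and 0.504% with a positive score). In the authors' deposited table the probe set shared by Trf and Srprb had a score of 4.5 at a q of 0.00231, and Slc2a2 a score of -4.16 at a q of 0.00744. The header of that table gives no direction. The scores correlated with the difference of the labelled groups across all 22626 probe sets (r = 0.796, a description, since probe sets share the arrays), so positive scores were taken to mean a higher knockout mean. Scores of Fga, Fgb and Fgg in the authors' deposited table were 0.66, 0.33 and 1.53, opposite in sign to the differences of -0.93, -0.68 and -0.68 between the group means. None of these scores had a q under 0.05. The signs differed also for Krt8, Gata4, Gata6, Apoc1 and Ihh, again with no q under 0.05.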

How the data were processed

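For each array the authors deposited log2 values by probe set. The submitters' processing notes name GCOS, RMA and affy, with no version or order, so the normalisation behind these values is known no further. Per the file headers, the authors also deposited a signed score with its p-value and q-value. No source used here says how the score was made. The number of arrays limits the precision, and the labels name no scan date or other batch.

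Values were used as deposited, with no filter. Genes were named from the platform annotation: 20380 probe sets carry 1 symbol, 691 several and 1555 none. The gene identifiers of all 31 represented markers matched the RefSeq gene table of GRCm38.p6, with 0 altered names. The labelled groups were then compared by limma (version 3.58.1, under R 4.3.3; lmFit and eBayes, two-sided, no covariate) on all 22626 probe sets and 8 arrays, with Benjamini-Hochberg adjustment and a threshold of 0.05. Differences are knockout minus wild type. The fit was tested on simulated data. Summaries and plots were made with Python 3.11.15, pandas 2.3.3 and matplotlib 3.10.9. The replicates are labelled biological.

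The members and lists were chosen with earlier results of these data known, so they are no independent evidence. By the rule for named genes, all members are named, in full where p, SD or overlap was extreme. Of the second endoderm list, the rule names genes of smallest limma p and of largest SD. Apoh, Habp2 and Serpina6 were added after their values were seen. Which upstream sequences to show was chosen after their values were seen. Alternatives were quantile normalisation, centring, a filter on dim probe sets, other limma settings, other probe set rules, other measures of spread and leaving out arrays.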

Additional observations from a re-analysis of the deposited data

Results flagged for a closer look

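In groups of 4 arrays, a value was marked where its gap to the nearest other array was too large a share of the group's range by Dixon's 95% limit. Of 62 groups (31 genes in 2 groups of arrays) 2 were marked, where chance marks about 1 in 20. Gata4 was highest on wild-type array 3, at 4.45 against 4.27 for the next array. Fgg was highest on wild-type array 5, at 9.90 against 9.14. No value of knockout array 14 was marked.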

How the results depend on the processing

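No paired analysis was possible because the groups share no replicate number. No alternative gave a limma call, for the 31 genes or for all probe sets, at an adjusted p of 0.05. Knockout array 14 was lowest for 25 to 26 of the represented genes under each scaling and filter tried and with each other array left out, a count added after the data were seen. The median difference ran from -0.64 to 0.19 with single arrays left out, and turned positive without knockout array 14. The number of genes with a higher knockout mean ran from 7 to 23 with single arrays left out, and was 7 of the 27 left with dim probe sets removed, where fewer genes were counted. The median SD of secreted and lipoprotein genes ran from 0.59 to 1.44 with single arrays left out and was 0.57 as a scaled median absolute deviation. That of transcription factor and signalling genes ran from 0.30 to 0.44, was 0.61 with dim probe sets removed (4 genes left) and 0.26 with all probe sets of a gene averaged.

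Some single differences changed sign, all without a call, and the cause was not tested. With array weights these were Alb (-0.092), Rbp4 (0.086), Apoc1 (-0.10), Dab2 (0.029) and Krt8 (0.31). With centring it was Ihh (-0.022), and with probe sets averaged Hnf4a (0.075). Without wild-type arrays 3 and 5 they were Apob (-0.44), Amn (-0.18), Cdh1 (0.61), Epcam (0.012) and Cited1 (-0.38). With single arrays left out the differences ran from -0.076 to 0.168 for Alb, -0.087 to 1.072 for Amn, -1.05 to 0.40 for Apoa1, -1.16 to 0.32 for Apoa4, -0.48 to 0.85 for Apob, -0.16 to 0.20 for Apoc1, -1.23 to 0.22 for Apom, -0.95 to 0.61 for Cdh1, -0.071 to 0.634 for Cited1, -0.71 to 0.29 for Dab2, -0.78 to 0.15 for Epcam, -1.68 to 0.18 for Fga, -1.34 to 0.40 for Fgb, -1.53 to 0.40 for Fgg, -0.55 to 0.13 for Hnf4a, -0.044 to 0.070 for Ihh, -0.012 to 0.988 for Krt18, -0.34 to 0.60 for Krt8, -0.81 to 0.39 for Rbp4 and -0.78 to 0.14 for Ttr. Background signal per array was not used here, so what limits dim probe sets such as those of Gata4 and Ihh was not measured.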
